A study of Mus musculus with 60 samples.

Results

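The RLTR subfamilies are rodent groups of endogenous retroviruses (ERVs), each read in these data as the summed RNA of all its genomic copies. They were taken as the repeat rows of both count tables whose name starts with RLTR and whose counts over all 60 libraries reach 100. This rule kept 182 of 187 RLTR rows, out of 1146 repeat rows and 56633 features (genes and repeats) in all. The 5 rows left out were RLTR43A with 0 counts, RLTR43B with 11, RLTR9A4 with 28, RLTR46 with 44 and RLTR50A with 91, and the members closest above the minimum were RLTR12F with 115, RLTR1 with 146 and RLTR1E_MM with 151. Of the 182 members, 172 were long terminal repeats (LTRs) and 10 were internal sequences, marked by names ending in int, and they fell under 45 name stems such as RLTR13, with 23 members, RLTR20, with 16, and RLTR9, with 12.

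The libraries came from mouse embryonic stem (ES) cells of the E14JU line grown in serum with LIF, the cytokine that keeps them undifferentiated. In every group the cells carried POLE4, an accessory subunit of DNA polymerase epsilon, fused to a dTAG degron, so that the dTAG compound leads to loss of the protein. One line was otherwise unmodified (WT) and the other also carried MCM2-2A, a change in the histone-binding part of the replicative helicase subunit MCM2. Each line received the solvent DMSO (Ctrl, Ctrl MCM2-2A) or 1 uM dTAG (dPOLE4, dPOLE4 MCM2-2A) for 24 h and was collected then (T0) or after a further 12, 24 or 60 h of retinoic acid (RA) without LIF (T12, T24, T60), with 3 libraries per group. These hours follow the sample titles and the study's methods, while the protocol text in the labels lists 24, 48 and 60 h of RA, so the hours behind T12 and T24 rest on the titles. A separate set of the same 4 kinds of cells was collected after 96 h of DMSO or dTAG with no RA (96h). The degron lines were picked as clones, and the labels name 1 line per background without saying how many clones were sequenced, so the MCM2-2A mutation and the line that carries it cannot be told apart. No source used here ties the libraries of a group to separate animals, and the p-values measure the spread between these libraries only.

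An LTR sits at both ends of a retroviral insertion and holds its promoter, and the internal sequence between the LTRs holds the viral genes. Most copies are now solitary LTRs left by recombination between the ends of an element. In mouse ES cells many ERVs are kept silent by KRAB zinc finger proteins that bring in TRIM28 and the histone methyltransferase SETDB1, which sets H3K9me3, together with DNA methylation. Some LTR groups nevertheless carry binding sites for pluripotency factors such as OCT4 and act as enhancers or promoters in these cells, and RLTR9 and RLTR13 include known cases.

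Levels are given as CPM, the counts scaled to a common library size with TMM factors, which are not corrected for the length or the number of copies of a subfamily, so levels are compared between groups, and an order of members by CPM is an order by number of counts only. Counts of near-identical subfamilies are uncertain because reads matching several copies were shared out among them, and the LTR and internal rows of 1 element are not independent. The libraries were made from total RNA depleted of ribosomal RNA, so copies lying within introns or behind an active gene also contribute, and this contribution was not separated. The RNA came from bulk cultures, where fewer cells that transcribe a subfamily and less RNA per cell cannot be told apart. A member is called differentially expressed (DE) when the absolute log2 fold change (log2FC) exceeds 0.58 and the adjusted P is under 0.01 in edgeR's quasi-likelihood test, fitted over all genes and repeats with Benjamini-Hochberg adjustment. Log2FC values are given ± SE. Each comparison of 1 group with another is of 3 against 3 libraries. Tests of whether a change differs between the lines (interaction terms) use 4 groups of 3 libraries.

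The libraries held 10461077 to 46609151 counts in the RA experiment and 7126100 to 23598266 in the 96h experiment. The ES cell label held at T0, where the 6 ES cell markers (Pou5f1, Sox2, Nanog, Esrrb, Zfp42 and Dppa5a) summed to 3160 to 3263 CPM in Ctrl and 3443 to 3815 CPM in Ctrl MCM2-2A. Pole4 mRNA stood at 50.3, 54.7 and 51.5 CPM in Ctrl and at 46.6, 55.7 and 56 CPM in dPOLE4 at T0. The degron acts on the protein, so this mRNA level does not check the depletion. In Ctrl MCM2-2A at T0 Pole4 stood at 34.8, 32.6 and 33.1 CPM, and Mcm2 at 356, 290 and 296 CPM against 487, 493 and 504 CPM in Ctrl. For both genes every Ctrl MCM2-2A library lay below every Ctrl library at each time and at 96h, and the part of these levels in the results on MCM2-2A was not tested. On whole chromosomes the median log2FC of Ctrl MCM2-2A against Ctrl at T0 reached -0.48 on chromosome 11, 0.24 on chromosome 14 and 0.56 on chromosome 15. A subfamily has copies on many chromosomes, and the part of these shifts in the results on MCM2-2A was not tested.

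A few subfamilies carried most of the RLTR RNA. RLTR1B-int had the highest mean over all libraries at 467 CPM and held 15.1% of all member counts, followed by RLTR13G at 376 and RLTR19-int at 356 CPM. This order is that of the pooled libraries and changed between groups. RLTR19-int was above RLTR1B-int in every Ctrl library at T60 (270 to 358 against 141 to 155 CPM), and RLTR13G was above it in every Ctrl MCM2-2A library at 96h (459 to 765 against 342 to 396 CPM). Over all libraries these 3 members together held 38.2% of the counts and the first 6, which add RLTR4_MM-int (129 CPM), RLTR45-int (128 CPM) and RLTRETN_Mm (125 CPM), held 50.3%. RLTR4_MM-int is the internal part of elements related to murine leukaemia virus, and RLTRETN_Mm is the LTR of ETn elements, a group that still inserts new copies in laboratory mice. The next 9 were RLTR17 (78.1 CPM), RLTR9E (74.5), RLTR6-int (72.1), RLTR17B_Mm (68.8), RLTR10-int (49.8), RLTR20A4 (44.0), RLTR11A (40.0), RLTR1B (37.1) and RLTR11A2 (33.7), which brought the share to 66.1%. The median member had 4.19 CPM, 53 members had 10 CPM or more and 29 had less than 1 CPM.

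Summed over the 182 members, RLTR counts took a smaller share of the libraries at T60 than at T0, and the gap between these times was wider in the WT line than in the MCM2-2A line. In Ctrl they made up 0.416% to 0.434% of all counts at T0, 0.328% to 0.358% at T12, 0.370% to 0.374% at T24 and 0.154% to 0.181% at T60. The 3 libraries at T60 lay below those of every earlier time. In Ctrl MCM2-2A the share was 0.291% to 0.352% at T0 and 0.223% to 0.243% at T60, so that this line started lower and ended higher than Ctrl, without overlap at either time. The share in dPOLE4 was 0.405% to 0.421% at T0 and 0.183% to 0.197% at T60, and in dPOLE4 MCM2-2A it was 0.323% to 0.344% and 0.248% to 0.262%. Without RLTR1B-int the T0 share was 0.322% to 0.350% in Ctrl and 0.263% to 0.319% in Ctrl MCM2-2A, so that the gap between the means went from 0.428% against 0.324% to 0.340% against 0.294%. At T60 it was 0.140% to 0.165% and 0.191% to 0.210% without this member. At 96h without RA the shares of all members lay closer together, with 0.332% to 0.355% in Ctrl, 0.331% to 0.351% in dPOLE4, 0.289% to 0.335% in Ctrl MCM2-2A and 0.284% to 0.330% in dPOLE4 MCM2-2A. There the dPOLE4 MCM2-2A libraries all lay below those of Ctrl and dPOLE4, by a narrow margin, and the Ctrl MCM2-2A libraries overlapped the other 3 groups. These shares are given as descriptions, and the tests were made for each member.

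**Figure D1:**
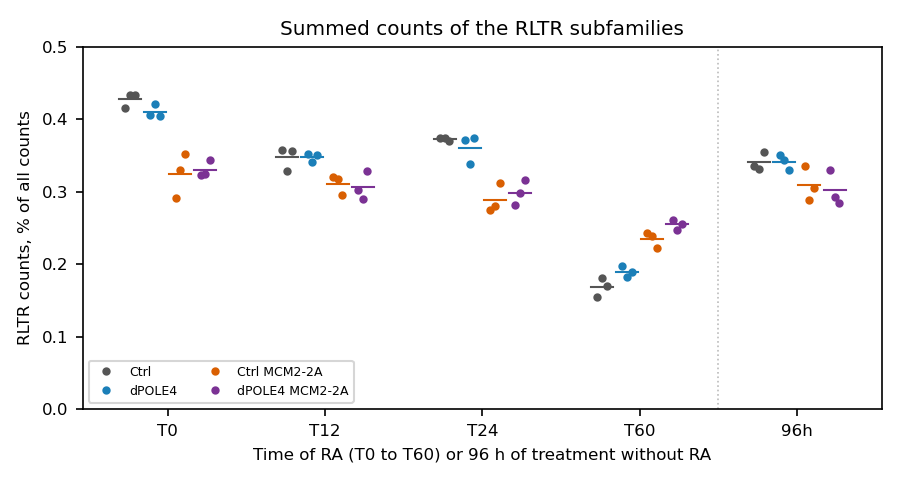
Summed counts of the 182 RLTR subfamilies as a percent of all counts (y axis) at each time of RA and, right of the dotted line, at 96h without RA (x axis), with 1 point per library and colours for the 4 kinds of cells. In the WT line the Ctrl points drop from 0.416% or more at T0 to 0.181% or less at T60, and the Ctrl MCM2-2A points at T60 stay at 0.223% or more.

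The first question was how RLTR transcription changes when ES cells leave pluripotency in RA, and in Ctrl most tested members were lower at T60. Of 166 members that passed the filter on low counts, 99 were called lower (59.6%) and 3 higher, where 23.7% of all features tested were called lower and 26.9% higher. Their median log2FC was -0.89 beside -0.01 over all features, and 153 of the 166 values were negative. The filter left out 16 members with too few counts, so these counts do not cover all 182. Among the 156 LTR rows tested 93 were lower, and among the 10 internal rows 6 were lower.

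The deepest losses were in RLTR13, ETn and RLTR9 LTRs. RLTR13B2 stood at 32.9, 40.6 and 43.4 CPM at T0 and at 1.4, 2.47 and 2.21 CPM at T60, so every T60 library was far below every T0 library. Its log2FC was -4.34 ± 0.17 (edgeR adjusted P = 9.6e-12). RLTR13G, the most abundant LTR row, read 552, 703 and 813 CPM at T0 and 48.5, 47.8 and 34.8 CPM at T60, with a log2FC of -3.99 ± 0.14. Its T0 replicates spread from 552 to 813 CPM, and the lowest of them was still far above every T60 library.

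RLTRETN_Mm went from 248, 262 and 247 CPM at T0 to 23.2, 16 and 18.8 CPM at T60, a log2FC of -3.70 ± 0.10. RLTR9E, an LTR group known for enhancer activity in ES cells, went from 112, 114 and 131 CPM to 13.4, 11.9 and 10.5 CPM (log2FC -3.32 ± 0.09). RLTR13E went from 16.9, 20.8 and 20.5 CPM to 1.76, 2.47 and 2.88 CPM (log2FC -3.10 ± 0.17). In these 3 subfamilies, too, the groups did not overlap.

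Of the internal sequences, RLTR1B-int and RLTR45-int were reduced most. RLTR1B-int stood at 992, 888 and 937 CPM at T0 and at 141, 155 and 148 CPM at T60 (log2FC -2.69 ± 0.07). RLTR45-int went from 170, 178 and 211 CPM to 23.7, 23.3 and 20.5 CPM (log2FC -3.07 ± 0.09). The third most abundant member behaved otherwise, since RLTR19-int read 408, 373 and 378 CPM at T0 and 270, 324 and 358 CPM at T60, a log2FC of -0.30 ± 0.09 that was not called. RLTR4_MM-int, the murine leukaemia virus group, first read 115, 120 and 124 CPM at T0, then 176, 167 and 165 CPM at T12, and 57.7, 57.7 and 63.7 CPM at T60. Its level was thus above T0 at T12 and below it at T60, and the T60 log2FC of -1.03 was called.

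The decrease was uneven across name stems. In RLTR9, 10 of 12 tested members were lower with a median log2FC of -1.89, and in RLTR11 all 5 were lower with a median of -1.43. RLTR13 had 13 of 22 lower (median -1.07), RLTR20 had 9 of 15 (median -0.86), and RLTR30 had 5 of 6. RLTR10 and RLTR12 had 4 of 10 and 4 of 9 lower, with medians of -0.79 and -0.60. RLTR44 differed from these, with 0 of 6 members called and a median of -0.14, a count that rests on few members and was not set against other stems by a test.

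**Figure D2:**
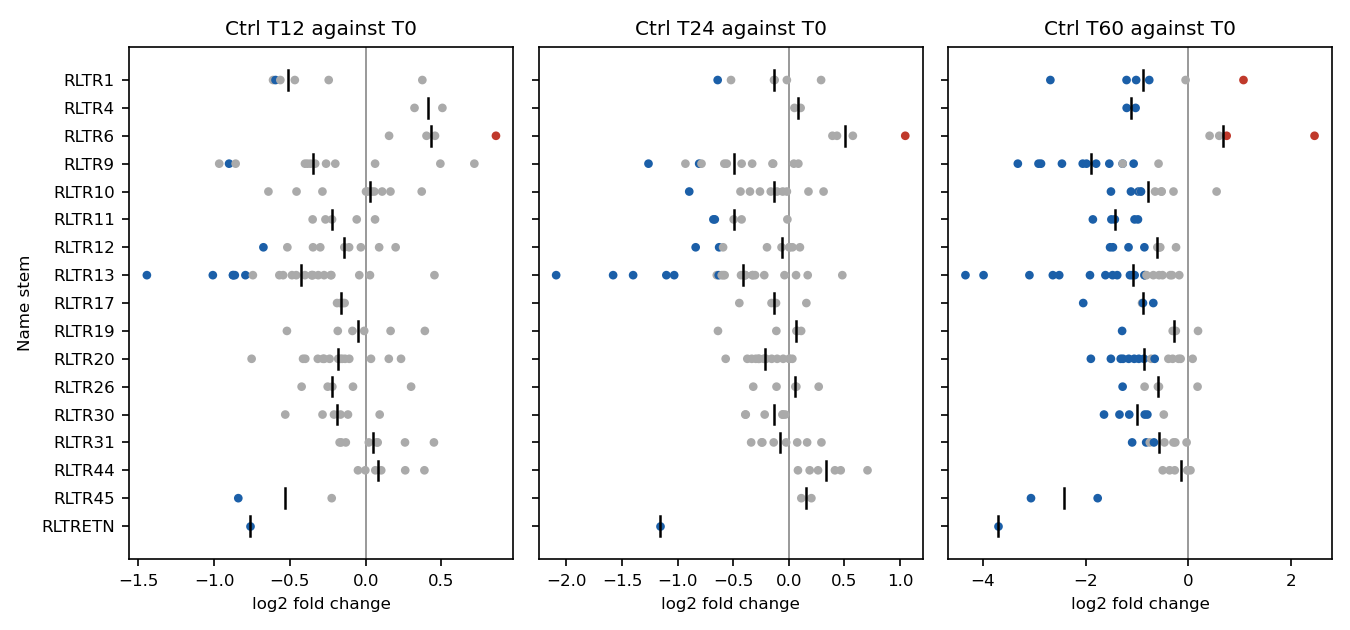
Log2FC of each tested RLTR subfamily in Ctrl at T12, T24 and T60 against T0 (x axis), with 1 row per name stem (y axis) and 1 point per subfamily, blue where called lower, red where called higher and grey where not called. At T60 nearly every RLTR9 and RLTR11 point is blue and left of 0, and the RLTR6 points lie right of 0.

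The RLTR6 stem was the exception in direction. RLTR6B_Mm stood at 8.61, 7.63 and 9.86 CPM at T0, at 17.6, 12.3 and 17.2 CPM at T12, at 19.2, 16.4 and 18.3 CPM at T24 and at 57.3, 45.9 and 42 CPM at T60, and no T12, T24 or T60 library reached down into the T0 range. It rose at each time, by a log2FC of 0.86 ± 0.15 at T12, 1.05 ± 0.10 at T24 and 2.46 ± 0.12 at T60. RLTR6-int went from 41.6, 42 and 43.2 CPM at T0 to 74.6, 76.1 and 64.7 CPM at T60 (log2FC 0.75 ± 0.07). The other member called higher was RLTR1D, which read 2.04, 3.08 and 3.74 CPM at T0 and 6.87, 5.75 and 6.33 CPM at T60 (log2FC 1.08 ± 0.20). The remaining RLTR6 members were above 0 but not called, and the median of the 4 was 0.68.

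Changes at the earlier times were smaller and fewer. At T12, 14 of 168 tested members were lower and 1 was higher, where 4.04% of all features were called lower and 7.24% higher, and the median log2FC was -0.22 beside 0.01 over all features. At T24, 22 of 167 were lower and 1 higher, beside 8.27% and 13.5% of all features, with a median of -0.21. RLTR6B_Mm was the member called higher at both times. All 3 times were compared with the same T0 libraries, so their values are set side by side and were not counted as repeats of each other.

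RLTR13B2 led the early decrease as well, with 15.6, 12 and 15 CPM at T12 and 10.2, 7.42 and 9.79 CPM at T24. Its log2FC was -1.44 ± 0.12 at T12 and -2.09 ± 0.12 at T24. RLTR13D6 had a log2FC of -1.01 ± 0.11 at T12 and -1.40 ± 0.11 at T24, and RLTR9D had -0.90 ± 0.09 and -1.26 ± 0.09. All 3 were already called at T12, when RLTR9E still read 94.7, 76.4 and 103 CPM. RLTR13E reached -1.58 ± 0.10 and RLTRETN_Mm -1.16 ± 0.04 at T24. At T12 the 5 largest decreases also held RLTR42 (log2FC -1.14 ± 0.23) and RLTR8 (log2FC -0.88 ± 0.22, adjusted P = 0.0095 in edgeR's test), both at 3.3 CPM or less in every library of the comparison. The call of RLTR8 was lost without any 1 of the 6 libraries (adjusted P 0.0124 to 0.0459 in edgeR's test), and that of RLTR42 without Ctrl T0 replicate 1 or 2 or Ctrl T12 replicate 1 (0.0106 to 0.0159).

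RLTR1B-int and RLTR45-int did not follow a single direction over time. RLTR1B-int read 686, 567 and 608 CPM at T12, below T0, then 866, 849 and 856 CPM at T24. RLTR45-int read 114, 66 and 131 CPM at T12 and 212, 184 and 248 CPM at T24. Both were called lower at T12, with log2FC values of -0.60 and -0.84, and both had their lowest levels at T60.

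**Figure D3:**
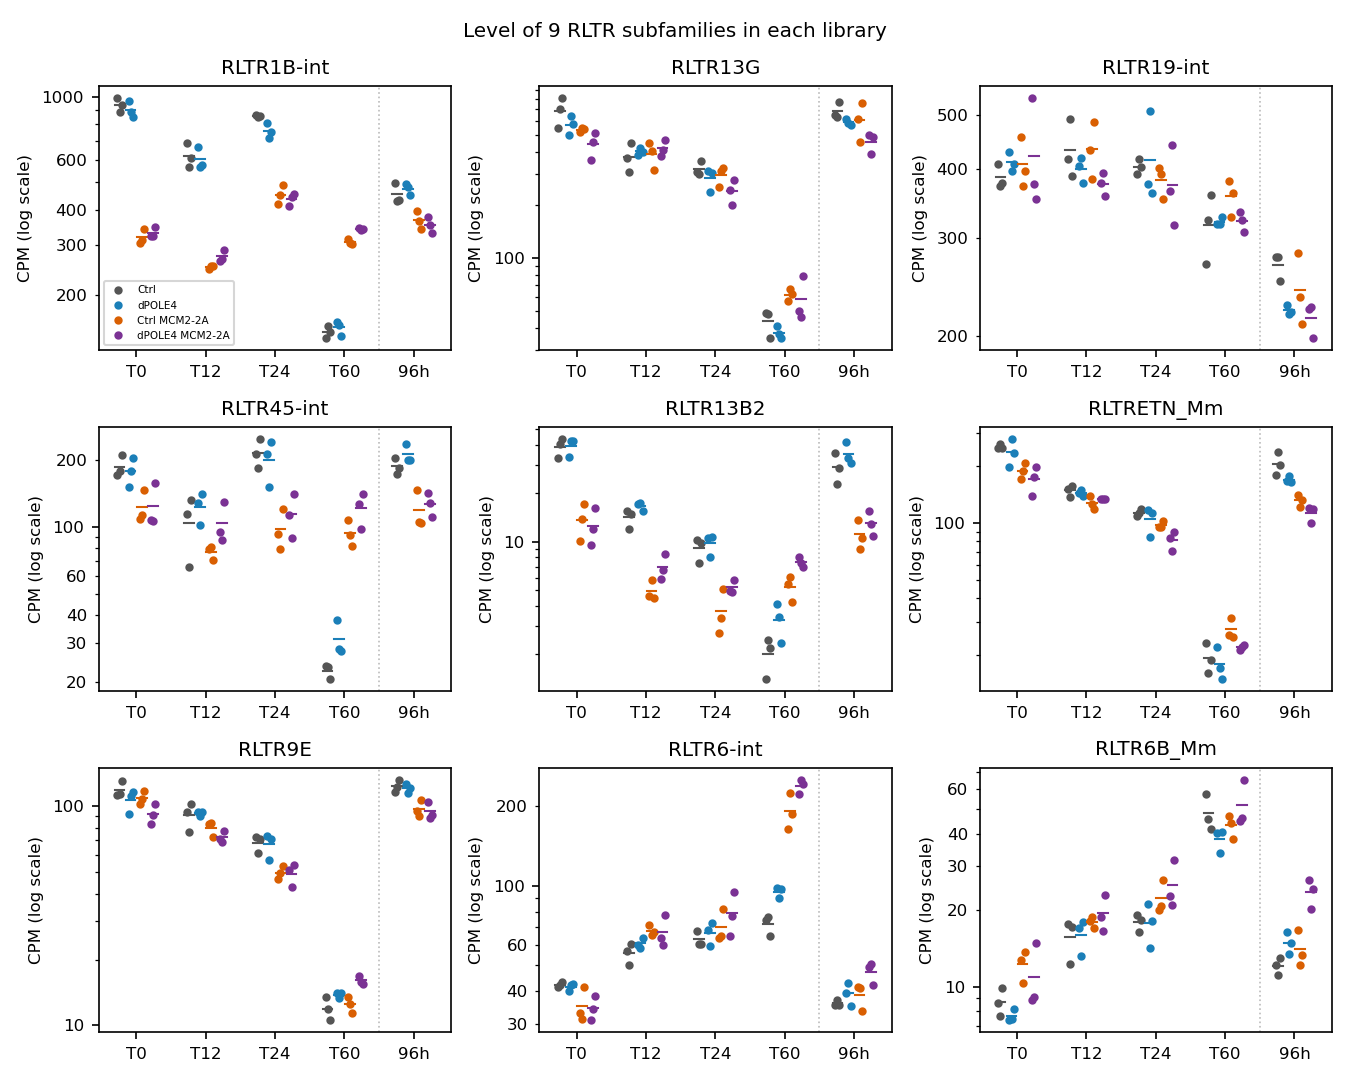
Level in CPM (log y axis) of 9 RLTR subfamilies in every library of the 20 groups, by time of RA and, right of the dotted line, at 96h without RA (x axis), with 1 point per library and colours for the 4 kinds of cells. RLTR1B-int and RLTR45-int reach 155 and 23.7 CPM or less at T60 in Ctrl, where the lowest Ctrl MCM2-2A libraries read 304 and 81.5 CPM.

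LTR and internal rows of the same name moved to different degrees. In Ctrl at T60 the log2FC was -2.69 for RLTR1B-int and -1.02 for the LTR row RLTR1B, and it was -3.07 for RLTR45-int and -1.77 for RLTR45. For RLTR14 the order was the opposite, with -0.74 for the internal row and -2.20 for the LTR. RLTR10-int and its LTR row had the same value of -0.52, and RLTR4_MM-int had -1.03 beside -1.20 for its LTR. The difference between rows of a pair was not tested, since the rows share elements and reads.

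Other repeats also fell at T60 in Ctrl. Of 114 MaLR rows, a separate class of nonautonomous LTR elements, 76 were lower (66.7%) with a median log2FC of -0.80, and of 91 LINE-1 rows 62 were lower (68.1%) with a median of -0.75. Of 24 IAP and ETn rows 5 were higher and 8 lower, with a median of -0.17. The RLTR share of 59.6% lower therefore lay near those of MaLR and LINE-1 rows. IAP and ETn elements are also ERVs of this genome, and RLTRETN_Mm is the LTR of ETn elements.

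Genes that silence repeats and genes of pluripotency changed in the same comparison. Of 30 repeat silencing genes 1 was higher and 11 were lower at T60 in Ctrl, with a median log2FC of -0.49. Dnmt3b, a de novo DNA methyltransferase, had a log2FC of -2.28, Trim28 of -1.62 and Setdb1 of -0.91, and Suv39h1, another H3K9 methyltransferase, rose by 1.68. Of 12 pluripotency factors 11 were lower with a median of -3.72, among them Pou5f1 (-4.80), Nanog (-4.56) and Esrrb (-4.89). The 6 ES cell markers summed to 256 to 337 CPM at T60. The 5 endoderm markers went from 4.6 to 10.7 CPM at T0 to 137 to 192 CPM at T60, the 5 fibroblast markers from 46.5 to 59.9 CPM to 363 to 511 CPM, and the 5 neural markers from 217 to 224 CPM to 304 to 332 CPM. All 5 endoderm markers were called higher. Of the fibroblast markers 4 were called higher and 1 lower, and of the neural markers 3 were higher and 1 lower. The 4 trophoblast markers summed to 30.4 to 32.7 CPM at T0 and to 11.9 to 16.5 CPM at T60, and no marker of any list was at 0 in all libraries of a group. The part of these changes in cell type in the RLTR values was not tested.

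RLTR losses at T60 were also found in the other 3 kinds of cells, in fewer members. In dPOLE4, 82 of 168 tested members were lower and 6 higher, where 22.5% of all features were lower and 25.6% higher, with a median log2FC of -0.64. In Ctrl MCM2-2A, 63 of 171 were lower and 6 higher (21.2% and 26.3% of all features), with a median of -0.55. In dPOLE4 MCM2-2A, 51 of 169 were lower and 6 higher (19.3% and 23% of all features), with a median of -0.51. These 4 comparisons share no libraries. Of the members lower in Ctrl, 74 were also lower in dPOLE4, which is 74.7% of the Ctrl list and 90.2% of the dPOLE4 list. For Ctrl MCM2-2A the shared number was 60, or 60.6% of the Ctrl list and 95.2% of the MCM2-2A list, and for dPOLE4 MCM2-2A it was 45, or 45.5% and 88.2%. In all 4 kinds of cells 39 members were lower, and RLTR1D, RLTR6-int and RLTR6B_Mm were higher.

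The lists of the 5 largest decreases overlapped in part between the kinds of cells. In dPOLE4 the largest decreases were those of RLTR13G (log2FC -3.97 ± 0.09), RLTRETN_Mm (-3.75 ± 0.13), RLTR13B2 (-3.62 ± 0.15), RLTR5_Mm (-3.18 ± 0.30) and RLTR9E (-2.98 ± 0.09). In Ctrl MCM2-2A they were those of RLTR9E (-3.12 ± 0.08), RLTR13G (-3.11 ± 0.07), RLTRETN_Mm (-2.77 ± 0.10), RLTR9C (-2.27 ± 0.38) and RLTR5_Mm (-2.04 ± 0.21). In dPOLE4 MCM2-2A they were those of RLTRETN_Mm (-2.98 ± 0.13), RLTR13G (-2.95 ± 0.20), RLTR9E (-2.56 ± 0.11), RLTR5_Mm (-2.38 ± 0.24) and RLTR9A2 (-1.88 ± 0.23). RLTRETN_Mm, RLTR13G and RLTR9E stood in every one of these lists and in that of Ctrl. RLTR13B2, the deepest loss in Ctrl, had -1.37 in Ctrl MCM2-2A.

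The increase of RLTR6-int was larger in the MCM2-2A line. In Ctrl MCM2-2A it went from 32.9, 31.3 and 41.4 CPM at T0 to 164, 224 and 186 CPM at T60 (log2FC 2.44 ± 0.12), and at T60 in dPOLE4 MCM2-2A it read 222, 252 and 244 CPM (log2FC 2.76 ± 0.10). In dPOLE4 it read 97.9, 90.3 and 97.2 CPM at T60 (log2FC 1.17 ± 0.06). RLTR6B_Mm was higher in dPOLE4 by 2.28 ± 0.10, in Ctrl MCM2-2A by 1.8 ± 0.11 and in dPOLE4 MCM2-2A by 2.18 ± 0.20, and RLTR6_Mm by 1.52 ± 0.11, 0.97 ± 0.14 and 1.62 ± 0.28. Of the other members named as higher, RLTR43C (1.86 ± 0.38 in dPOLE4 and 1.38 ± 0.40 in dPOLE4 MCM2-2A) stayed at 1.11 CPM or less in these libraries. RLTR22_Mus went from 6.34, 5.01 and 3.97 CPM to 12.1, 9.54 and 11.8 CPM in dPOLE4 (1.11 ± 0.16). RLTR1F_Mm had 1.34 ± 0.27 in Ctrl MCM2-2A and 1.71 ± 0.30 in dPOLE4 MCM2-2A. RLTR1D had 0.75 ± 0.18 in Ctrl MCM2-2A, and this call was lost without Ctrl MCM2-2A T0 replicate 3 (log2FC 0.55). That of RLTR43C in dPOLE4 MCM2-2A was lost without dPOLE4 MCM2-2A T0 replicate 1 or 2 or any T60 replicate of that group (log2FC 1.22 to 1.49).

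Whether the RA response depends on the background was tested with an interaction term, the T60 against T0 change in Ctrl MCM2-2A minus that in Ctrl. Of 171 members tested 14 had a higher (less negative or more positive) response in MCM2-2A and 1 a lower response, where 4.7% of all features were called higher and 4.4% lower. The median of the members was 0.33 beside -0.01 over all features. The shift was not particular to RLTR rows, since the median was 0.40 in MaLR, 0.56 in LINE-1 and 0.30 in IAP and ETn rows. RLTR13B2 differed by 2.94 ± 0.32, RLTR45-int by 2.64 ± 0.17 and RLTR1B-int by 2.61 ± 0.10 (edgeR adjusted P = 9.3e-12). RLTR6-int differed by 1.66 ± 0.16 and RLTR13B1 by 1.45 ± 0.20. RLTR6B_Mm differed by -0.69 ± 0.18 with an adjusted P of 0.0096 in edgeR's test, and this call was lost when any of 9 of the 12 libraries was left out (all but Ctrl T0 replicate 3, Ctrl T60 replicate 3 and Ctrl MCM2-2A T0 replicate 2; log2FC -0.71 to -0.51). Without Ctrl T60 replicate 1 the number of members called fell from 15 to 9.

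These differences took different forms. RLTR1B-int was already low in Ctrl MCM2-2A at T0, with 305, 312 and 342 CPM, and read 315, 305 and 304 CPM at T60. Its log2FC was -0.04 ± 0.06 there, against the called decrease of -2.69 in Ctrl. RLTR45-int read 109, 113 and 147 CPM at T0 and 107, 91.7 and 81.5 CPM at T60 in Ctrl MCM2-2A (log2FC -0.39 ± 0.12, not called). RLTR13B2 did fall there, from 10.1, 13.8 and 17.3 CPM to 5.5, 6.08 and 4.24 CPM (log2FC -1.37 ± 0.19), and its T0 level was below that of Ctrl in every library. RLTR6-int was not called different between the lines at T0 and rose further in the MCM2-2A line. RLTR13G and RLTRETN_Mm, with differences of 0.85 and 0.91, fell in both lines by a log2FC of 2.77 or more. At T60 RLTR13G read 56.5, 65.9 and 62.3 CPM in Ctrl MCM2-2A, above all 3 Ctrl libraries.

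**Figure D4:**
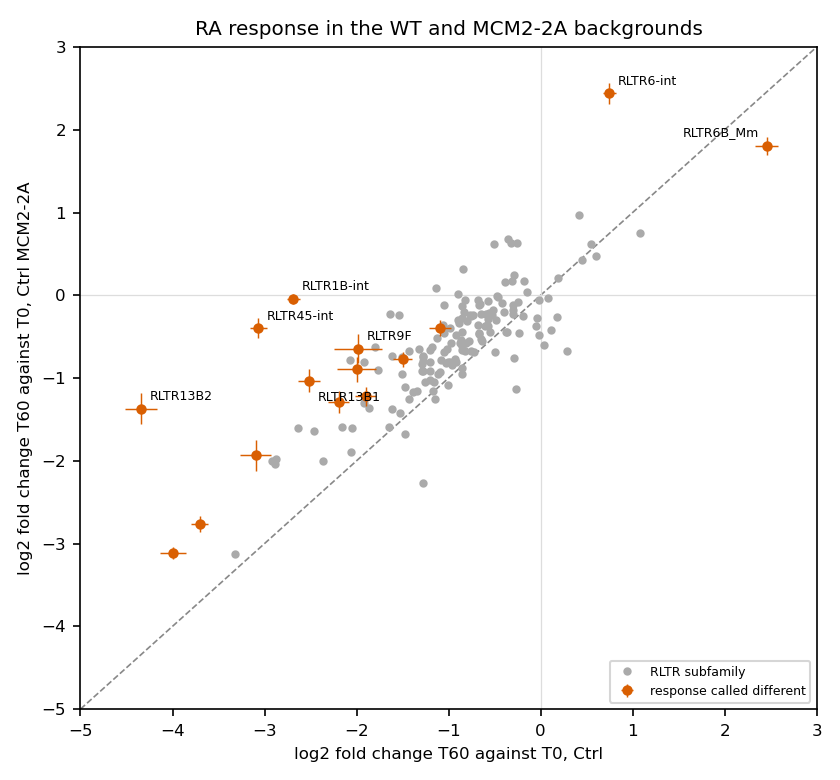
Log2FC at T60 against T0 in Ctrl (x axis) and in Ctrl MCM2-2A (y axis) for each RLTR subfamily tested in both, with the line of equal response, and with the 15 subfamilies whose response differed by the interaction test in orange with bars of 1 SE. RLTR13B2, RLTR45-int and RLTR1B-int lie far above the line, and RLTR6B_Mm lies below it.

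Markers of cell state differed between the lines in the same comparison. The 6 ES cell markers summed to 588 to 748 CPM in Ctrl MCM2-2A at T60 and to 256 to 337 CPM in Ctrl, and of 12 pluripotency factors 6 had a higher response by the interaction test and 0 a lower one. The endoderm markers summed to 282 to 306 CPM in Ctrl MCM2-2A and 137 to 192 CPM in Ctrl at T60, the fibroblast markers to 168 to 183 CPM and 363 to 511 CPM, the neural markers to 215 to 248 CPM and 304 to 332 CPM, and the trophoblast markers to 21.0 to 25.1 CPM and 11.9 to 16.5 CPM. These sums are levels at T60 and not responses to RA. By the interaction test 0 endoderm markers had a higher and 2 a lower response (median -0.84). For the fibroblast markers it was 2 higher and 0 lower (median 1.06). For the neural markers it was 1 higher and 1 lower, and for the 3 trophoblast markers tested 2 higher and 0 lower. Of the 30 silencing genes 1 had a higher and 3 a lower response. Their part in the RLTR differences was not tested.

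The lines were also compared with each other at each time. At T0, 12 of 170 tested members were lower and 2 higher in Ctrl MCM2-2A, where 9.06% of all features were called lower and 9.83% higher, so the share of members lower, 7.06%, was below the background. The median log2FC was -0.15 beside -0.02 over all features. RLTR1B-int was lower by a log2FC of -1.57 ± 0.07 (edgeR adjusted P = 3.3e-08) and RLTR13B2 by -1.49 ± 0.17. Both groups of 3 libraries were far apart for these, at 888 CPM or more against 342 CPM or less for RLTR1B-int and at 32.9 CPM or more against 17.3 CPM or less for RLTR13B2. RLTR13A (-1.33 ± 0.21), RLTR27 (-1.07 ± 0.13) and RLTR13A1 (-1.04 ± 0.27) followed, and 6 of the 12 lower members belonged to RLTR13. RLTR45-int was lower by -0.61 and RLTR13B1 by -0.58.

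The members called higher at T0 were low in level. RLTR1F_Mm had 1, 5 and 1 counts in the Ctrl libraries and 13, 8 and 29 in Ctrl MCM2-2A (log2FC 2.29 ± 0.53). RLTR31M had 16, 22 and 22 counts and 42, 40 and 107 (log2FC 1.18 ± 0.25). The call of RLTR1F_Mm was lost without Ctrl T0 replicate 1 or 3 or Ctrl MCM2-2A T0 replicate 2 or 3 (adjusted P 0.0104 to 0.0273 in edgeR's test). That of RLTR31M was lost without Ctrl T0 replicate 1 or 3 (0.0120 and 0.0124), and that of RLTR13A1 without any Ctrl T0 replicate or Ctrl MCM2-2A T0 replicate 1 or 2 (0.0190 to 0.0297). Without Ctrl T0 replicate 3, and likewise without Ctrl MCM2-2A T0 replicate 1, the number of members called went from 14 to 9.

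At T12, 5 of 166 tested members were lower (3.01%) and 0 higher, beside 7.62% and 6.93% of all features, and 22 members had an unadjusted p under 0.05 in the higher direction. In both directions together 39 of 166 members and 8073 of 17799 features had an unadjusted p under 0.05. The 5 members called lower were RLTR13B2 (-1.5 ± 0.15), RLTR1B-int (-1.29 ± 0.07), RLTR27 (-0.90 ± 0.11), RLTR44-int (-0.82 ± 0.14) and RLTR16B_MM (-0.73 ± 0.09). At T24, 16 of 170 were lower (9.41%) and 0 higher, beside 7.6% and 9.71%, with 4 at an unadjusted p under 0.05 in the higher direction and a median of -0.25. In both directions together 67 of 170 members and 9922 of 18708 features had an unadjusted p under 0.05 at T24. DESeq2 also called 0 members higher at T12 and 0 at T24. RLTR46A2 (-1.81 ± 0.43, at under 1 CPM), RLTR27 (-1.36 ± 0.12), RLTR13B2 (-1.31 ± 0.18), RLTR44-int (-1.18 ± 0.11) and RLTR44B (-1.16 ± 0.27) had the largest decreases. RLTR44-int read 15, 13.5 and 13.3 CPM in Ctrl and 6.41, 5.51 and 6.56 CPM in Ctrl MCM2-2A at T24, with no overlap. The call of RLTR46A2 was lost without Ctrl T24 replicate 2 or Ctrl MCM2-2A T24 replicate 2 or 3 (log2FC -1.69 to -1.61), and that of RLTR44B without replicate 1 of either group or Ctrl MCM2-2A T24 replicate 2 (log2FC -1.03 to -0.96).

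At T60 most calls lay in the other direction. In Ctrl MCM2-2A 12 of 165 tested members were higher (7.27%) and 2 lower (1.21%) than in Ctrl. Of all features 8.97% were called higher and 7.93% lower, so the share of members higher was below the background. The median log2FC was 0.24 beside 0.01 over all features, and it was 0.28 in MaLR, 0.38 in LINE-1 and 0.12 in IAP and ETn rows. RLTR45-int was higher by 2.06 ± 0.10 (edgeR adjusted P = 2.5e-09), RLTR1F_Mm by 1.64 ± 0.33, RLTR9A2 by 1.54 ± 0.38, RLTR13B2 by 1.45 ± 0.23 and RLTR6-int by 1.43 ± 0.10. Of these, RLTR1F_Mm and RLTR9A2 were low in level, with means of 0.52 and 0.35 CPM in Ctrl at T60. RLTR1B-int was higher by 1.07 ± 0.06. RLTR44C (-1.56 ± 0.30) and RLTR44-int (-0.74 ± 0.19) were lower. RLTR44C read 2.19, 2.47 and 2.49 CPM in Ctrl and 1.04, 0.841 and 0.46 CPM in Ctrl MCM2-2A. The calls of RLTR44-int and RLTR9A2 were lost without Ctrl T60 replicate 1 or 3 or Ctrl MCM2-2A T60 replicate 2 or 3, where their log2FC was -0.73 to -0.54 and 1.41 to 1.5. Of all members 4 were called lower at T0 and higher at T60 in the MCM2-2A line: RLTR13B1, RLTR13B2, RLTR1B-int and RLTR45-int. At T60, of the 12 pluripotency factors 8 were higher in Ctrl MCM2-2A with a median of 1.02, among them Nanog (2.02), Pou5f1 (1.70) and Esrrb (1.67). Of the silencing genes 3 were higher and 1 lower, among them Mphosph8, a HUSH complex subunit (1.17), and Dnmt3b (0.75). At T0 the genes higher in Ctrl MCM2-2A were Dnmt3a, a de novo DNA methyltransferase (1.48), Mphosph8 (1.40) and Uhrf1, which brings maintenance methylation to replicated DNA (0.70), and Morc2a was lower (-0.58). Cell type markers differed between the lines at T0 as well. In Ctrl MCM2-2A 3 endoderm markers were higher (summed level 19.1 to 25.0 CPM against 4.6 to 10.7 CPM), and 3 fibroblast markers were lower and 1 higher (31.1 to 44.0 against 46.5 to 59.9 CPM). Of the neural markers 2 were lower (152 to 174 against 217 to 224 CPM), and of the trophoblast markers 2 were lower (16.7 to 19.8 against 30.4 to 32.7 CPM). Their part in the RLTR values was not tested.

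Without RA, at 96h, most calls again lay on the lower side in the MCM2-2A line. Of 165 tested members 10 were lower (6.06%) and 1 higher (0.61%), with a median log2FC of -0.07. Of all features 6.47% were called lower and 9.23% higher, so the share of members lower was near the background. RLTR13B2 read 35.7, 23 and 28.8 CPM in Ctrl and 13.7, 9 and 10.6 CPM in Ctrl MCM2-2A (log2FC -1.42 ± 0.18). RLTR9A3 (-0.81 ± 0.15), RLTR20B1 (-0.77 ± 0.12), RLTR16B_MM (-0.73 ± 0.13) and RLTR13B1 (-0.67 ± 0.12) followed, and RLTR26_Mus was higher (0.72 ± 0.16). RLTR1B-int read 499, 429 and 435 CPM in Ctrl and 396, 365 and 342 CPM in Ctrl MCM2-2A, with a log2FC of -0.29 ± 0.09 that was not called. Of the members lower at T0 and at 96h 6 were shared, which is 50% of the T0 list and 60% of the 96h list. The call of RLTR26_Mus was lost in 5 of 6 fits without 1 library, those without Ctrl 96h replicate 1, 2 or 3 or Ctrl MCM2-2A 96h replicate 2 or 3 (log2FC 0.67 to 0.78). Without Ctrl MCM2-2A 96h replicate 3 the number called went from 11 to 7.

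The second question was whether loss of POLE4 changes RLTR transcription, and in the WT background few members differed. At T0, 0 of 167 tested members were called between dPOLE4 and Ctrl, with 26 at an unadjusted p under 0.05. The same held for 0 of 168 at T12 (4 at an unadjusted p under 0.05), 0 of 171 at T24 (4) and 0 of 166 at 96h (15). In edgeR's test 0% of all features were called at T0, 0% at T12, 0% at T24 and 0% at 96h. The study, with DESeq2, reported DE genes at 96h in this background, so the 0% there holds for edgeR's test. Over all features an unadjusted p under 0.05 was found for 2069 of 17792 at T0 and 1150 of 17914 at T12. It was found for 1451 of 19093 at T24 and 2164 of 17580 at 96h. The share of members at that level was above this at T0 and below it at T12, T24 and 96h. DESeq2 also called 0 members in each of these comparisons. The smallest edgeR adjusted P of a member at T0 was 0.359. Of the 26 members at an unadjusted p under 0.05 at T0, 25 were lower and 1 higher. All 4 at T12 and all 4 at T24 were lower, and at 96h 10 were higher and 5 lower. The median log2FC of the tested members at T0 was -0.11, beside 0.00 over all features. It was -0.12 in MaLR, -0.25 in LINE-1 and -0.04 in IAP and ETn rows.

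At T60, 2 of 155 tested members were higher in dPOLE4 and 0 were lower, where 0.0584% of all features were called higher and 0.134% lower. RLTR6_Mm read 10.8, 11.1 and 9.69 CPM in Ctrl and 17.9, 19.8 and 17.7 CPM in dPOLE4 (log2FC 0.83 ± 0.10, edgeR adjusted P = 0.0013). RLTR10C read 24.6, 26 and 28.3 CPM in Ctrl and 44, 35.4 and 40.7 CPM in dPOLE4 (log2FC 0.62 ± 0.09, edgeR adjusted P = 0.0033). Neither overlapped between the groups. The call of RLTR10C was lost without Ctrl T60 replicate 1 (log2FC 0.56), without dPOLE4 T60 replicate 1 (0.55) and without dPOLE4 T60 replicate 3 (0.61). The median of the members was 0.19 beside 0.00 over all features, and 32 members were higher and 2 lower at an unadjusted p under 0.05. In both directions together these were 34 of 155 members, beside 2446 of 17116 features, so the share of members was the larger one. The medians of MaLR and LINE-1 rows were 0.22 and 0.23, with 0 called. RLTR6-int had a log2FC of 0.42 ± 0.07 and RLTR45-int of 0.47 at T60, neither called. For RLTR1B-int the log2FC was 0.07, with an interval of 2 SE from -0.05 to 0.20. Of the 5 neural markers 3 were lower and of the 5 fibroblast markers 1 was lower in dPOLE4 at T60. The neural markers summed to 271 to 282 CPM in dPOLE4 against 304 to 332 CPM in Ctrl, and their part in the RLTR values was not tested.

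In the MCM2-2A background, dPOLE4 MCM2-2A was compared with Ctrl MCM2-2A. The main edgeR fit called 0 members at all 5 times. That fit used only the libraries compared, with the filter on low counts and without the replicate number as a block. Other edgeR fits with the filter called 1 member at T24 (all groups in 1 fit) and 1 at 96h (replicate block). At T0 0 of 171 tested members were called (0.0715% of all features), with 14 at an unadjusted p under 0.05. At T12 it was 0 of 166 (0.404% of all features, 16 at an unadjusted p under 0.05), at T24 0 of 170 (1.02%, 28) and at T60 0 of 168 (2.25%, 25). At 96h it was 0 of 166 (0.304%, 10). Over all features an unadjusted p under 0.05 was found for 2457 of 18171 at T0 and 3179 of 18077 at T12. It was found for 3888 of 18441 at T24, 4302 of 18473 at T60 and 2004 of 17421 at 96h. At each of the 5 times the share of members at that level was below the share of all features. Of the members at that level 8 were higher and 6 lower at T0, 4 and 12 at T12, and 25 and 3 at T24. At T60 it was 19 and 6, and at 96h 6 and 4. The median log2FC of the members was 0.04 at T0, -0.06 at T12, 0.17 at T24, 0.12 at T60 and 0.10 at 96h. Over all features it lay between -0.002 and 0.006. At T24 and T60 the median was 0.17 and 0.10 in MaLR and 0.15 and 0.06 in LINE-1 rows. In IAP and ETn rows it was -0.06 and -0.08. DESeq2 called 0 members at T0, T12, T24 and T60 and 1 at 96h. Without dPOLE4 MCM2-2A T60 replicate 3 edgeR called 2 members at T60, RLTR13A2 and RLTR22_Mus. RLTR22_Mus read 7.82, 6.56 and 7.2 CPM in Ctrl MCM2-2A and 4.94, 3.51 and 5.55 CPM in dPOLE4 MCM2-2A at T60 (log2FC -0.61 ± 0.17, edgeR adjusted P = 0.043), without overlap. For RLTR1B-int at T60 the log2FC was 0.15, with an interval of 2 SE from 0.03 to 0.27. Of the 12 pluripotency factors 3 were higher and 0 lower at T60, and 0 of the 30 silencing genes were called at any of the 5 times. Of the 5 fibroblast markers 3 were lower in dPOLE4 MCM2-2A at T60, with sums of 68.3 to 85.5 CPM against 168 to 183 CPM. Of the 5 neural markers 1 was lower (166 to 185 against 215 to 248 CPM), of the 5 endoderm markers 1 was lower (219 to 245 against 282 to 306 CPM), and of the 4 trophoblast markers 1 was higher (30 to 38.2 against 21.0 to 25.1 CPM). The part of these markers in the RLTR values was not tested.

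RLTR6B_Mm had the smallest adjusted P at 96h. It read 16.8, 12.2 and 13.4 CPM in Ctrl MCM2-2A and 26.3, 20.2 and 24.2 CPM in dPOLE4 MCM2-2A, without overlap, and its log2FC of 0.77 ± 0.15 had an edgeR adjusted P of 0.049. Same-numbered libraries of these groups deviated together, and in edgeR's test with the replicate number as a block the log2FC was 0.75 ± 0.09 with an adjusted P of 1.9e-06. In DESeq2 without the block it was 0.76 ± 0.17 with an adjusted P of 0.0012, so RLTR6B_Mm was called higher in both of these fits. In the WT background it read 12.2, 11.1 and 13 CPM in Ctrl and 16.4, 13.5 and 14.9 CPM in dPOLE4 at 96h.

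Whether the effect of POLE4 loss differs between the backgrounds was tested with interaction terms at T60 and 96h. Of 168 members tested each time 0 were called, with 5 at an unadjusted p under 0.05 at T60 and 5 at 96h, where 0.1% and 0% of all features were called. Over all features an unadjusted p under 0.05 was found for 1922 of 18982 at T60 and 686 of 18555 at 96h. DESeq2 called 1 member at T60, RLTR22_Mus, and 0 at 96h, and edgeR's difference for RLTR22_Mus was -1.01 ± 0.22 with an adjusted P of 0.047. With no filter on low counts edgeR called 2 members at T60, RLTR22_Mus (-1.03 ± 0.21, adjusted P = 0.00029) and RLTR6B_Mm (0.60 ± 0.12, adjusted P = 0.00039). The count of 0 at T60 thus holds for edgeR's filtered fit.

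**Figure D5:**
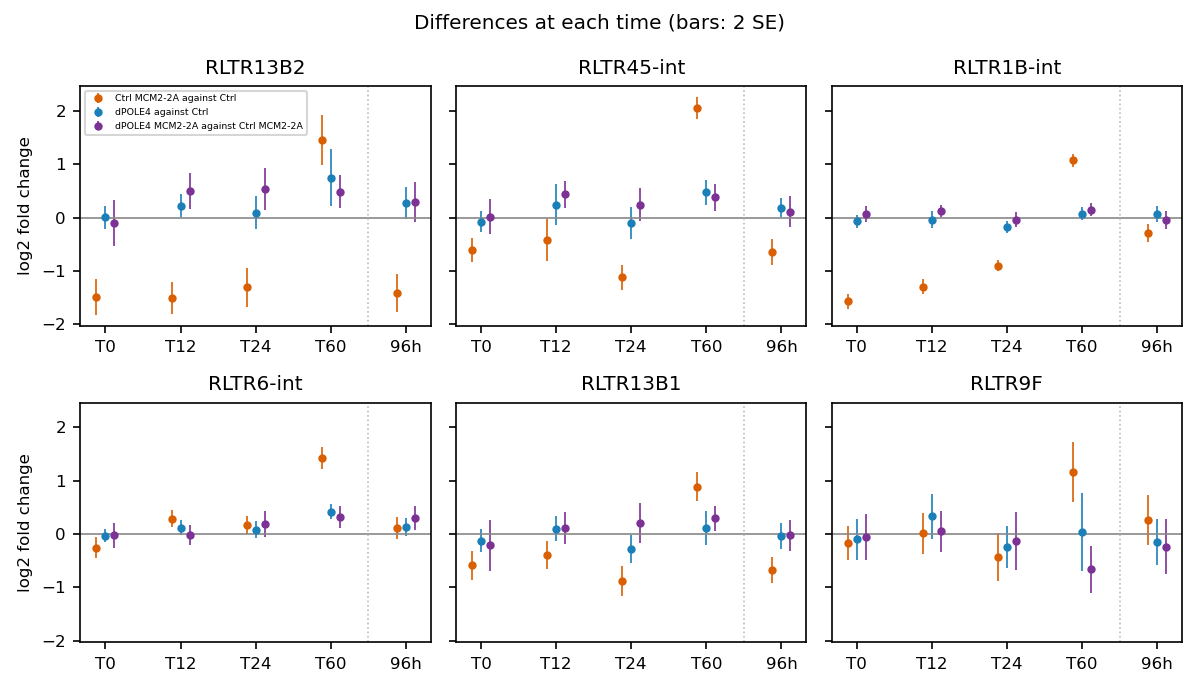
Log2FC (y axis) of 6 RLTR subfamilies at each time of RA and, right of the dotted line, at 96h (x axis) for Ctrl MCM2-2A against Ctrl, dPOLE4 against Ctrl and dPOLE4 MCM2-2A against Ctrl MCM2-2A, with bars of 2 SE. RLTR1B-int, RLTR13B2 and RLTR45-int go from below 0 at T0 to above 0 at T60 for the MCM2-2A comparison, and no value for loss of POLE4 shown here was called.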

How the data were processed

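RNA-seq of mouse ES cells was deposited by the authors as tables of raw counts per gene and per repeat subfamily, 1 for the RA time course (48 libraries) and 1 for 96h (12 libraries). Per the labels and the study's methods, strand-specific libraries of total RNA were trimmed with cutadapt 4.2 and aligned with STAR to mm10 with multi-mapped reads allowed, and TEcount with GENCODE genes assigned reads to genes and shared multi-mapped reads among repeat subfamilies. The annotation of repeat copies and their sequences were not used here. The values are counts with no normalization, and 0 columns belonged to other series.

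Each comparison was fitted on its own libraries over all features with edgeR 4.0.16 (R 4.3.3, limma 3.58.1): filterByExpr with a minimum count of 10 and a total of 15, TMM factors, and glmQLFTest, with |log2FC| above 0.58 and a Benjamini-Hochberg adjusted P under 0.01. Interaction terms were fitted on the 4 groups concerned. The code was tested on simulated data. Members and gene lists were chosen with earlier results of these data known. In each comparison up to 5 called members per direction with the largest change are named, with the 15 members of highest mean CPM, and RLTR13B1, RLTR45-int, RLTR1B-int and others named beside these were added after their values were seen.

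Library totals of 7126100 to 46609151 counts set the precision, and intervals are 2 SE. No 2 libraries held identical counts. Replicate numbers are shared by the groups. In 21 comparisons, deviations of same-numbered libraries correlated by -0.32 to 0.45, and all pairs exceeded 0.1 in 6: Ctrl MCM2-2A against Ctrl at 96h, dPOLE4 against Ctrl at T0, T24 and 96h, and dPOLE4 MCM2-2A against Ctrl MCM2-2A at T0 and 96h. Alternatives were DESeq2 1.42.0, its size factors in edgeR, TMM from genes alone, no filter, a replicate block, all groups in 1 fit, leaving out each library and, added after the data were seen, thinning to the smallest total.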

Additional observations from a re-analysis of the deposited data

Results flagged for a closer look

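The change from T0 to T60 in Ctrl MCM2-2A minus that in Ctrl was tested as an interaction term, and 15 subfamilies differed between the lines. The difference was 2.94 for RLTR13B2, 2.64 for RLTR45-int, 2.61 for RLTR1B-int, 1.66 for RLTR6-int, 1.45 for RLTR13B1, 1.31 for RLTR9F and 1.13 for RLTR13E, all as log2FC. It was 1.07 for RLTR41A2, 0.91 for RLTRETN_Mm, 0.87 for RLTR14, 0.85 for RLTR13G, 0.69 for RLTR11A2, 0.67 for RLTR31B2 and 0.64 for RLTR20B1. RLTR6B_Mm had a smaller increase in Ctrl MCM2-2A, with a difference of -0.69. The mutation and the line that carries it cannot be told apart in any of these.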

How the results depend on the processing

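Each comparison's number of called members stayed within 1.5 times under DESeq2 size factors and under TMM from genes only, and no named value changed sign in any setting. DESeq2 gave 22 of 24 counts within that range, no filter 18, the replicate block 23, all groups in 1 fit 21 and thinning 22. For Ctrl MCM2-2A against Ctrl the count at T12 went from 5 to 8 with no filter and to 8 with all groups in 1 fit, and at 96h from 11 to 5 when thinned. For dPOLE4 against Ctrl at T60 it went from 2 to 1 with all groups in 1 fit. For dPOLE4 MCM2-2A against Ctrl MCM2-2A it went from 0 to 1 at T24 (RLTR31B_Mm) with no filter and with all groups in 1 fit, to 1 at T60 (RLTR22_Mus) with no filter, and to 1 at 96h (RLTR6B_Mm) with DESeq2 and with no filter. The difference of the RA response went from 15 to 26 with no filter and to 9 when thinned, and that of the POLE4 effect at T60 from 0 to 1 with DESeq2 and 2 with no filter. The cause was not tested.

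With the replicate block the count for dPOLE4 MCM2-2A against Ctrl MCM2-2A at 96h, a paired comparison, was 1, and the block moved no other count by over 1.5 times (104 for Ctrl at T60 against T0, 18 for the difference of the RA response). Leaving out 1 library gave 9 to 13 calls for Ctrl MCM2-2A against Ctrl at T0, 7 to 13 at 96h, 1 to 2 for dPOLE4 against Ctrl at T60, 0 to 2 for dPOLE4 MCM2-2A against Ctrl MCM2-2A at T60 and 9 to 20 for the difference of the RA response. For Ctrl at T60 against T0 it gave 91 to 104. Of 564 named values without 1 library 57 lost their call. RLTR1F_Mm had 1 to 29 counts per library in Ctrl and Ctrl MCM2-2A at T0, and the part of depth in its calls was not tested.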
